A study of Homo sapiens with 24 samples.

Results

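The 10 genes described here form the entry to the extrinsic cell death pathway: the death receptors FAS, TNFRSF10A and TNFRSF10B, the decoy receptor TNFRSF10D, the ligand TNFSF10 (TRAIL), the adaptors FADD and TRADD, the initiator caspase CASP8, and the inhibitors CFLAR and FAIM. The genes were chosen by their change against vehicle on these arrays, with FAS leading, and were found by symbol as all probe sets that the platform annotation gives to 1 of these symbols alone, 39 of 54613 probe sets and 10 of 19775 genes. Total RNA of 4 established human prostate cancer cell lines was hybridised to 24 Affymetrix U133 Plus 2.0 arrays. Cells labelled LNCaP, VCaP, PC3 or NCI-H660 had received 0.5 µM or 10 µM I-BET762, an inhibitor of the BET bromodomain proteins, or DMSO vehicle for 24 hours, with 2 arrays from independent biological replicates in each of the 12 groups. LNCaP and VCaP are androgen-responsive lines from metastases, PC3 was derived from a tumour that had spread to bone, and NCI-H660 is of neuroendocrine type; each is a single line, grown in the same serum-containing medium and authenticated by its DNA profile according to the methods.

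A death receptor is a membrane protein that, once bound by its ligand, gathers the adaptor FADD through paired death domains, and FADD in turn recruits procaspase-8. Caspase-8 molecules brought together there cleave each other and then either the executioner caspases or the linker protein BID, which carries the signal to mitochondria. CFLAR (c-FLIP) resembles caspase-8, takes its place in the complex and blocks or redirects it, and FAIM is an inhibitor of FAS-driven death first found in B cells. TNFRSF10D binds TRAIL but has a truncated death domain, so it does not pass on the death signal.

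The identity of 2 of the lines was uncertain. ERG, an ETS factor that VCaP cells carry fused to the androgen-driven TMPRSS2 promoter, had signals between 2866.8 and 7084.5 on all 6 arrays labelled LNCaP, against 5.9 to 28.3 on all 6 labelled VCaP. ETV1, an ETS factor that is rearranged in LNCaP, had signals between 14.5 and 90.3 on the arrays labelled LNCaP, against 191.7 to 407.8 on those labelled VCaP. Both go against the labels, so these groups are called the arrays labelled LNCaP and the arrays labelled VCaP, and no direction is tied to either line by its name. KLK3, the prostate-specific antigen, averaged 7931.4 in vehicle under the LNCaP label and 20385.3 under the VCaP label, against 29.5 in PC3 and 15.7 in NCI-H660. Median signals of the arrays lay between 72.24 and 100.31, and 44.35% to 50.05% of probe sets reached a signal of 100, the floor below which a group was not counted as detected.

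The 250 bases before the transcription start of FAS and of TNFSF10 are shown because, among the 10 genes, FAS was called lower in the most lines and TNFSF10 is the only ligand. They are RefSeq sequences of build GRCh38.p14, for FAS the plus strand of chr10:88990548-88990797, before the most upstream of the 3 starts in the promoter table, which lies 26748 bases inside the annotated span of the gene, and for TNFSF10 the minus strand of chr3:172523431-172523680. Capitals mark matches to 1 of 6 motifs searched on both strands.
FAS: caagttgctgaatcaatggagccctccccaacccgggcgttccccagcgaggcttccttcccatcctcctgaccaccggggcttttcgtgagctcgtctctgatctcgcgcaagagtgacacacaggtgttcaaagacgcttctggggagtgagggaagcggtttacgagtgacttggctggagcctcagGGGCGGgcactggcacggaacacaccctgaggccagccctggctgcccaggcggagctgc
TNFSF10: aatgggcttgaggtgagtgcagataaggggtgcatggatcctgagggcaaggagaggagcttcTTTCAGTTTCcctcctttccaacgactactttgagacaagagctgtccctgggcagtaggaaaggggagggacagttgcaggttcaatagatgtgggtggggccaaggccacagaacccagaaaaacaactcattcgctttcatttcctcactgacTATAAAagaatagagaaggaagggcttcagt

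The FAS window held a GC box, GGGCGG, at 60 to 55 bases before the start, a motif that 42.6% of the 35116 promoter windows of the same length hold. The TNFSF10 window held a TATA box, TATAAA, at 31 to 26 bases before the start (10.7% of windows) and, read on the other strand, a pair of GAAA half-sites with any 2 bases between them, as interferon-responsive elements hold, at 187 to 178 bases (3.02%). Neither window held the letters of the MYC E-box CACGTG (6.34%), the CCAAT box (32%) or the AP-1 motif TGACTCA (4.2%). Promoter entries were found for 6 of the 10 genes.

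FAS fell in all 4 lines at both concentrations. FAS, on chromosome 10 (88964050 to 89017059), encodes the receptor for FAS ligand. Its signal on the arrays labelled LNCaP was 5631.2 and 5401.5 in vehicle, 2605.5 and 2588.6 at 0.5 µM, and 585.5 and 667.8 at 10 µM. Both arrays at each concentration lay below both arrays of the step before it. The log2 change against vehicle was -1.09 ± 0.20 (SE) at 0.5 µM, a fall of 2.12-fold, and -3.14 ± 0.20 at 10 µM, a fall of 8.8-fold. Set directly against 0.5 µM, 10 µM lowered FAS there by a further log2 change of -2.05.

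The arrays labelled VCaP started lower and ended at the floor. FAS signals were 430.7 and 373.6 in vehicle, 122.4 and 159 at 0.5 µM, and 94.9 and 104.8 at 10 µM, and the 3 groups did not overlap. The log2 changes were -1.52 and -2.01 (SE 0.20 each), folds of 2.86 and of at least 4.02, the second taken against the floor because the mean of 99.9 lay under it. In PC3 the signals were 542.5 and 544 in vehicle, 256.6 and 273 at 0.5 µM, and 128.2 and 218.5 at 10 µM, with log2 changes of -1.04 and -1.70. The PC3 arrays at 10 µM were the widest pair, and both still lay below the arrays at 0.5 µM. NCI-H660 gave 311.3 and 311.3 in vehicle, 140.9 and 147.4 at 0.5 µM, and 107.2 and 115.8 at 10 µM, with log2 changes of -1.11 and -1.48.

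**Figure D1:**
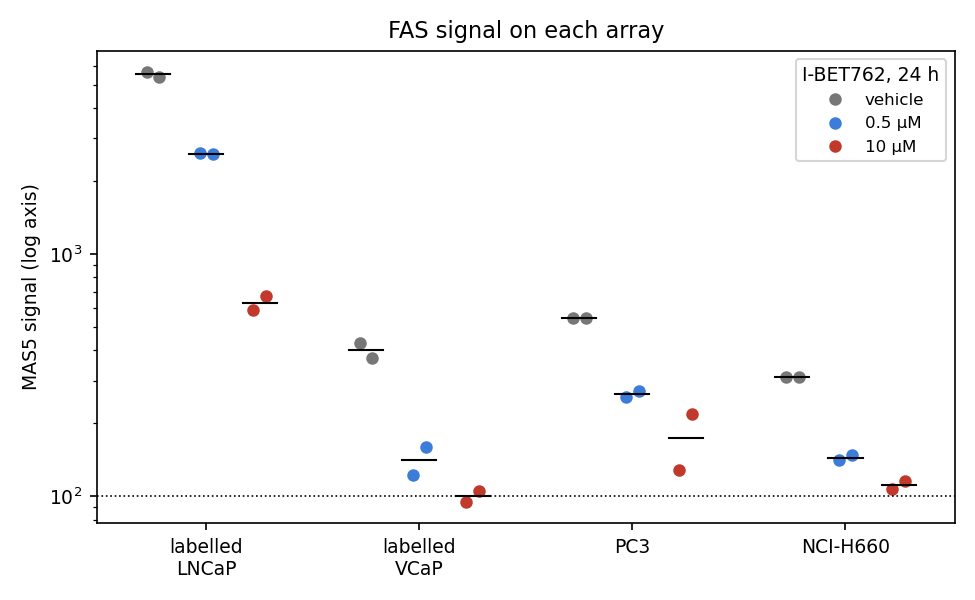
MAS5 signal of FAS (log axis) on each of the 24 arrays, by line and by I-BET762 concentration from vehicle to 10 µM. Points are arrays, short bars are means of 2 and the dotted line is the floor of 100. In each line the arrays at both concentrations lie below the vehicle arrays, and the arrays labelled LNCaP begin 10.2 to 17.7 times above the other lines.

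FAS was represented by 5 probe sets. All 5 were called lower at 10 µM on the arrays labelled LNCaP, with log2 changes between -3.92 and -3.14, beside 6.38% of all detected probe sets in the 4 lines. On those labelled VCaP 4 of 4 detected probe sets were called lower (-2.83 to -2.01), and in PC3 and NCI-H660 3 of 4 each (-1.70 to -1.09 and -1.94 to -0.80). At 0.5 µM the detected probe sets ranged from -1.25 to 0.01 on the arrays labelled LNCaP, from -2.91 to -1.52 on those labelled VCaP, from -1.95 to -0.57 in PC3 and from -1.35 to -0.43 in NCI-H660. The dimmest of the 5 was detected on the arrays labelled LNCaP alone, where it stood at 0.01, and averaging all 5 gave log2 changes of -0.89 on the arrays labelled LNCaP, -0.68 in PC3 and -0.50 in NCI-H660, and -0.86 in NCI-H660 at 10 µM, each short of the required fold. Without replicate 1 of PC3 at 0.5 µM the change there was -0.99, and the fits of PC3 and NCI-H660 alone lost the calls at 0.5 µM, and that of PC3 also at 10 µM.

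Among detected genes ordered from the most lowered, FAS stood at place 117 of 11912 on the arrays labelled LNCaP at 10 µM, 272 of 11744 on those labelled VCaP, 165 of 12093 in PC3 and 468 of 12234 in NCI-H660. Over the 8 log2 changes against vehicle, the profile of FAS was compared with 10118 genes that were detected in every line, by the root mean square difference. TRIM14, which encodes a tripartite motif protein, was nearest at 0.29. BMPR1B, a bone morphogenetic protein receptor, followed at 0.39, then TCEA3, a transcription elongation factor, at 0.43, MALL at 0.44 and NUPR1, a stress-induced nuclear protein, at 0.47. The log2 changes of TRIM14 were -1.49 and -3.23 at 0.5 µM and 10 µM under the LNCaP label, and -1.17 and -2.22 under the VCaP label.

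A gene was called where limma's adjusted p was under 0.1, the fold over 2 and the mean of at least 1 group at or over the floor. At 10 µM, 15 of the 40 pairs of member gene and line were called lower and 1 higher than vehicle, beside 4.37% of all such pairs of any gene called lower and 3.37% called higher. A call needs detection, and 36 of the 40 pairs were detected, so 7.21%, the share called lower among detected pairs of any gene, is the closer background. At 0.5 µM, 7 of 40 were called lower and 0 higher, beside 1.6% and 1.01% over all genes, and 2.66% of detected pairs called lower; median centring of the arrays raised these 7 to 10, and fitting each line alone left 4. The genes were listed with these contrasts in view, so the counts and the median changes are descriptions, and no p-value is given for a member's change. The median log2 change of the 10 genes at 10 µM was -0.75 in PC3, -0.61 in NCI-H660, -1.30 under the LNCaP label and -0.39 under the VCaP label, beside -0.01, -0.07, 0.06 and 0.06 over all genes. At 0.5 µM it was -0.46, -0.29, -0.91 and -0.14 in the same order, beside 0.01, -0.03, 0.09 and 0.04. As these are bulk samples, fewer cells that carry a transcript and less of it per cell cannot be told apart.

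**Figure D2:**
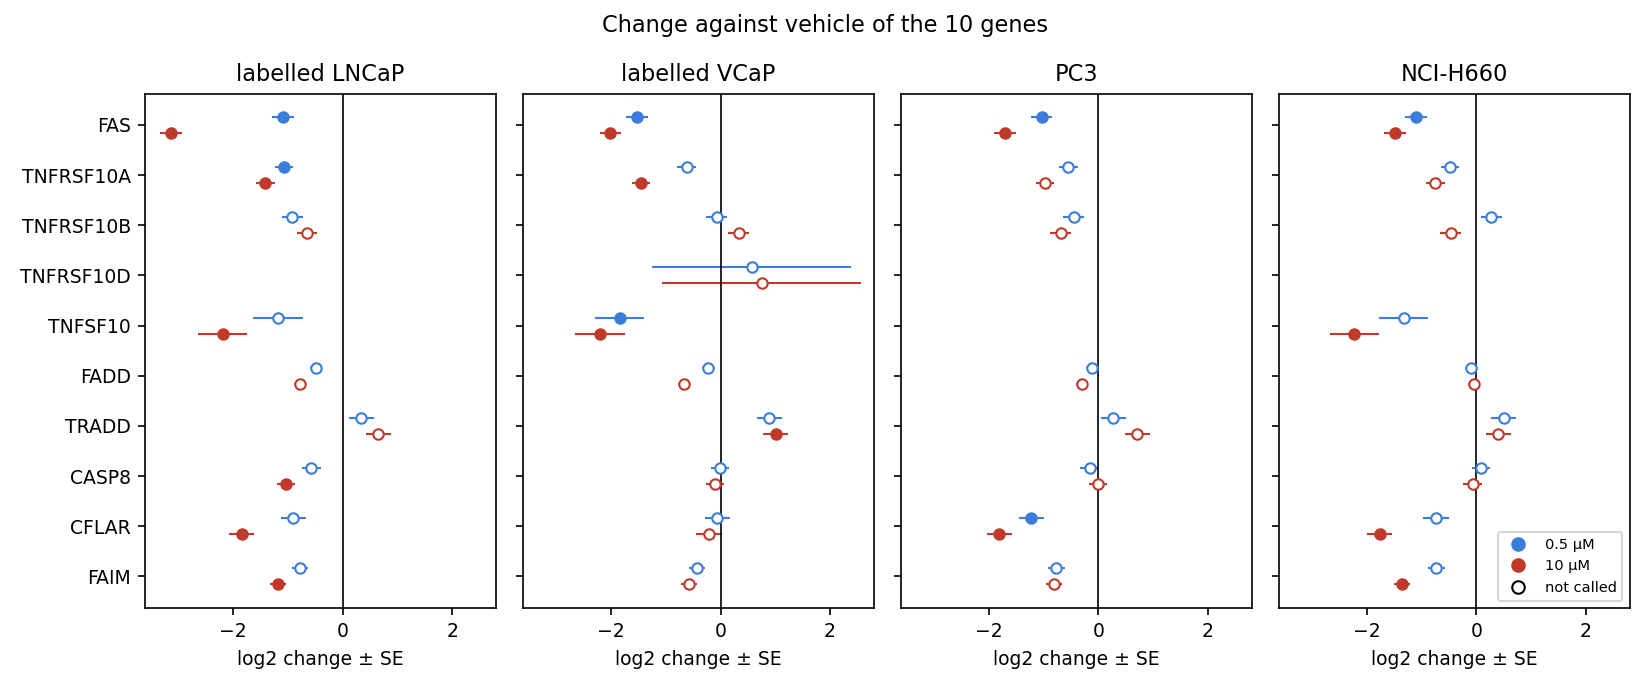
Log2 change against vehicle (points) with its standard error (bars) for each of the 10 genes in each line at 0.5 µM and 10 µM. Filled points were called. Changes with both groups below the floor are left out, and those with 1 group below it are drawn. FAS is called in all 4 panels at both concentrations, TRADD lies above 0 throughout, and FADD and TNFRSF10B have no filled point.

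TNFRSF10A (DR4), a TRAIL receptor which like FAS carries a death domain, had lower signals on both treated arrays than on both vehicle arrays in all 4 lines at both concentrations on the probe set that stands for the gene. Its other 2 probe sets did the same except in NCI-H660, where both overlapped vehicle at 0.5 µM (log2 change 0.02 each) and 1 overlapped it at 10 µM (-0.57). It was called lower on the arrays labelled LNCaP at both concentrations and on those labelled VCaP at 10 µM. On the arrays labelled VCaP its signals were 801.9 and 973.2 in vehicle, 550.8 and 603.1 at 0.5 µM, and 346.3 and 302.3 at 10 µM, a fall of 2.74-fold (log2 change -1.45 ± 0.17). Under the LNCaP label they were 298.8 and 293.2 in vehicle, 146.4 and 135.8 at 0.5 µM, and 118 and 104.5 at 10 µM (log2 changes -1.07 and -1.41). The arrays of the 3 groups were separate in both lines. PC3 averaged 300 at 10 µM, against 584.8 in vehicle, a log2 change of -0.98 that missed the required fold and passed it at -1.02 without vehicle replicate 2, at -1.20 without replicate 2 at 10 µM, and at -1.17 as the mean of its 3 probe sets. NCI-H660 averaged 119.3 at 10 µM, against 202 in vehicle (log2 change -0.75).

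TNFRSF10B (DR5), the other signalling receptor for TRAIL, was not called in any line at either concentration. On the arrays labelled VCaP its signals were 6290.8 and 5448.5 at 10 µM, against 4819.7 and 4494.6 in vehicle, a log2 change of 0.33 ± 0.19. Under the LNCaP label they were 497.4 and 565.9 at 10 µM, against 768.1 and 903.9 in vehicle (-0.65), and in PC3 1478.1 and 1527.6, against 2720.1 and 2172 (-0.69). The treated arrays thus lay above vehicle on the arrays labelled VCaP and below it in these other two on this probe set. The other 2 detected probe sets gave -0.05 and 0.08 at 10 µM under the VCaP label, -0.27 and -0.91 with overlapping arrays under the LNCaP label, and -0.77 and -0.88 in PC3. At 0.5 µM the change on the arrays labelled LNCaP was -0.92, and it passed the fold at -1.10 after median centring and at -1.04 without vehicle replicate 1. In NCI-H660 the groups overlapped, with 336.4 and 241 at 10 µM, against 332 and 471.3 in vehicle.

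TNFRSF10D, the decoy receptor, was detected only on the arrays labelled VCaP, where it gave 2024 and 1937 in vehicle, 2868.1 and 3024.8 at 0.5 µM, and 3288 and 3357.8 at 10 µM. The 3 groups did not overlap and the log2 changes were 0.57 and 0.75, folds of 1.49 and 1.68 that were not called; both of its probe sets lay above vehicle at 10 µM (0.69 and 0.75). The standard error of 1.82 takes in the near-background arrays of the other lines. In those lines every array lay between 1.1 and 56.3.

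The ligand TNFSF10 (TRAIL), on chromosome 3 (172505508 to 172523430), fell at 10 µM in the 3 lines where it was detected. On the arrays labelled LNCaP its signals were 343.4 and 417.8 in vehicle, 161.1 and 173.3 at 0.5 µM, and 91 and 75.3 at 10 µM, a fall of at least 3.81-fold at 10 µM (log2 change -2.19 ± 0.45). NCI-H660 gave 260.2 and 286.8 in vehicle, 110.9 and 106.1 at 0.5 µM, and 44.4 and 76 at 10 µM, a fall of at least 2.73-fold (-2.23). The groups were separate in both, and all 3 probe sets of the gene were called lower at 10 µM in each. The arrays labelled VCaP began just over the floor, at 125.7 and 118.6, and lay at 21.7 and 53.6 at 0.5 µM and at 18.2 and 39 at 10 µM, which bounds the fall at 1.22-fold or more. Those calls on the arrays labelled VCaP were lost with a floor of 200, with the line fitted alone and with the mean of the probe sets, and the call at 0.5 µM also without replicate 1 of vehicle (log2 change -1.80) or of 0.5 µM (-1.19, against -1.84 with all arrays). At 0.5 µM the changes of -1.18 (labelled LNCaP) and -1.33 (NCI-H660) were past the fold but not called. The change on the arrays labelled LNCaP was called after quantile normalization (-1.26) or median centring (-1.36), and, unchanged at -1.18, without any 1 of the 4 treated arrays labelled VCaP or of the 2 PC3 arrays at 0.5 µM. In PC3 all 6 arrays lay under the floor, between 33.2 and 91.

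**Figure D3:**
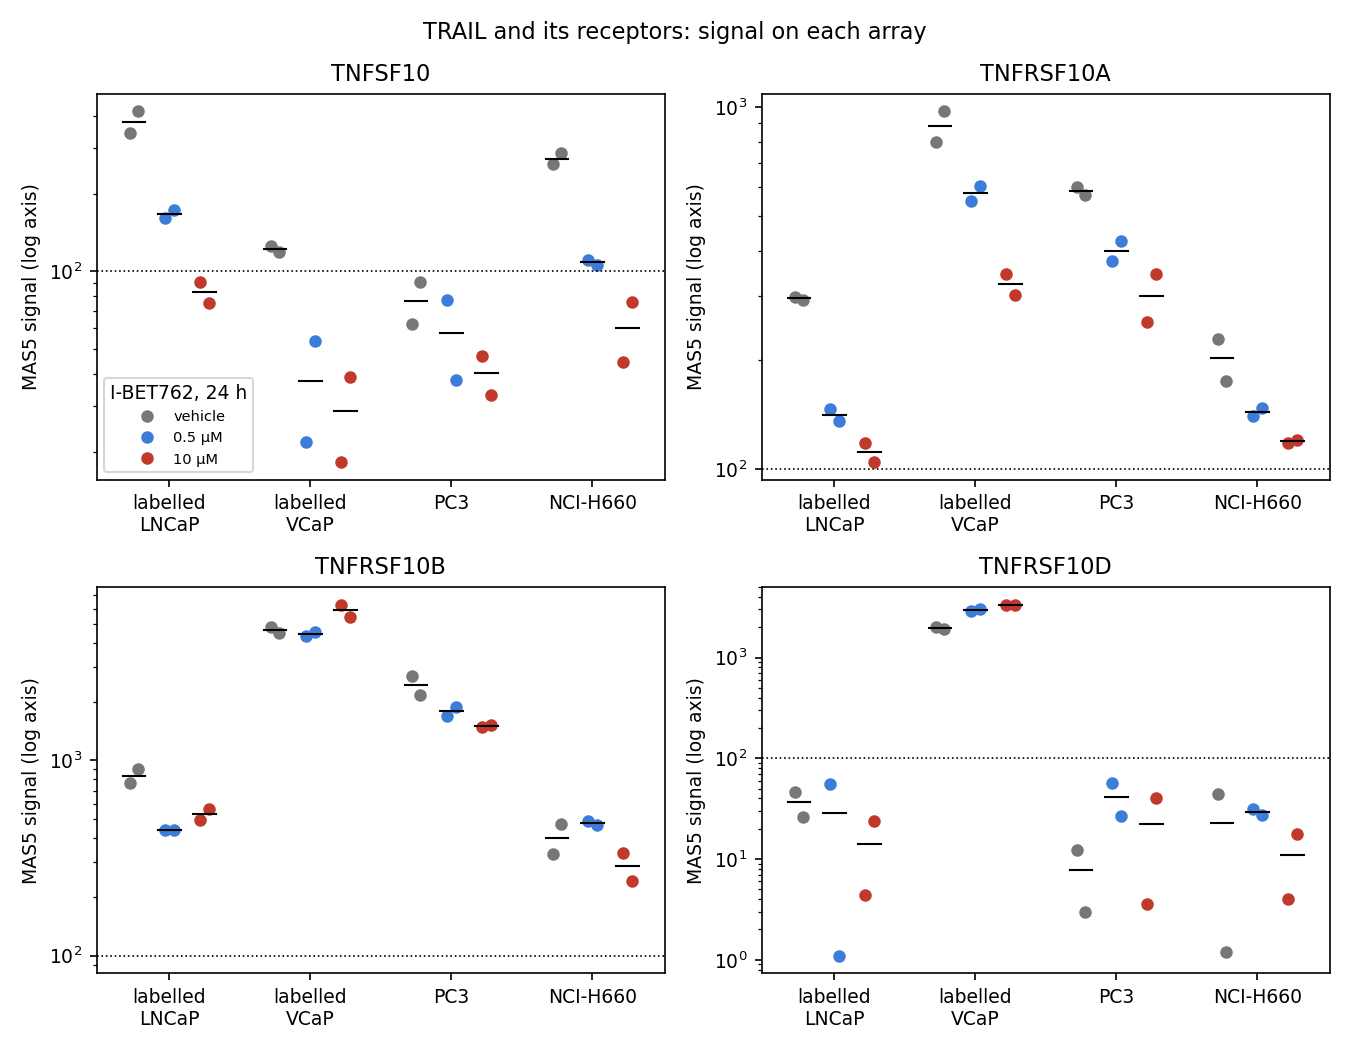
MAS5 signal (log axis, a scale of its own in each panel) of TNFSF10 and of the receptors TNFRSF10A, TNFRSF10B and TNFRSF10D on each array, by line and concentration. Points are arrays, short bars are means of 2 and dotted lines are the floor of 100. On the probe set that stands for each gene, TNFRSF10A steps down in every line, TNFRSF10B lies higher at 10 µM than in vehicle only on the arrays labelled VCaP, and TNFRSF10D stays under 100 outside those arrays.

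FADD, the adaptor that joins FAS and the TRAIL receptors to caspase-8, was not called in any line. Its signals on the arrays labelled LNCaP were 796.3 and 745.9 at 10 µM, against 1336.6 and 1310.6 in vehicle (log2 change -0.78 ± 0.11), and on those labelled VCaP 1304.7 and 1281, against 2090.6 and 2030.7 (-0.67). In PC3 they were 2572.9 and 2865.2, against 3443.4 and 3244.9 (-0.30), and in NCI-H660 795.1 and 768.6, against 789.5 and 831.7 (-0.05). The treated arrays were separate from vehicle in the first 3 of these and overlapped it in NCI-H660.

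TRADD is the adaptor that the TNF receptor uses ahead of FADD. On the probe set that stands for each gene, it was the 1 gene with mean signals above vehicle in all 4 lines at both concentrations. Both of its detected probe sets had both arrays above vehicle in all 4 lines at 10 µM. At 0.5 µM the other detected probe set averaged 166.3, against 167.9 in vehicle, in NCI-H660 (log2 change -0.02), and its arrays overlapped vehicle under the LNCaP label (0.05). Under the VCaP label the probe set that stands for TRADD gave 1065.9 and 1038.4 in vehicle, 2094 and 1820.8 at 0.5 µM, and 2178.9 and 2067.8 at 10 µM. The 10 µM arrays were called higher there at 2.02-fold (log2 change 1.01 ± 0.23). That call sat at the threshold and was lost after quantile normalization (0.99), median centring (0.88), with the mean of the probe sets (0.85) and without replicate 2 of vehicle (0.99) or replicate 1 at 10 µM (0.97). PC3 gave 1126.5 and 1723.3 at 10 µM, against 772.3 and 942.2 in vehicle (0.71), which was called at 1.01 without replicate 1 at 10 µM. The log2 changes at 10 µM were 0.65 on the arrays labelled LNCaP and 0.40 in NCI-H660, not called.

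CASP8, the initiator caspase, lies on chromosome 2 (201233463 to 201287711), 56775 bases beyond the end of CFLAR. It was called lower on the arrays labelled LNCaP only, where its signals were 775 and 688 in vehicle, 537.2 and 451.5 at 0.5 µM, and 337.8 and 379.5 at 10 µM (log2 change -1.03 ± 0.17 at 10 µM, 2.04-fold). The groups were separate, and both detected probe sets were called lower (-1.37 and -1.03). The call was lost without replicate 1 of vehicle or of 10 µM (-0.94 each). It was also lost with the mean of the 3 probe sets (-0.78), which takes in a probe set under the floor. Under the VCaP label its signals were 505.7 and 479.6 at 10 µM, against 545.4 and 511.8 in vehicle (-0.10). The dimmer detected probe set also had both arrays below vehicle there (-0.36), and neither was called. The PC3 and NCI-H660 arrays overlapped vehicle at both concentrations, with log2 changes between -0.16 and 0.08, although the dimmer probe set lay below vehicle on both NCI-H660 arrays at 10 µM (-0.53). Whether the change on the arrays labelled LNCaP differs from those in the other lines was not tested.

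CFLAR, the decoy of caspase-8, fell at 10 µM in PC3, in NCI-H660 and under the LNCaP label. Its signals were 457.7 and 490.2 in vehicle, 248.6 and 260.4 at 0.5 µM, and 118.4 and 148.3 at 10 µM on the arrays labelled LNCaP (log2 change -1.84 ± 0.23 at 10 µM, 3.55-fold). In NCI-H660 they were 589.7 and 574.2 in vehicle, 322.8 and 378.4 at 0.5 µM, and 175 and 166.7 at 10 µM (-1.77, 3.41-fold), and the step between the concentrations was itself called (-1.03). The 3 groups were separate in both. PC3 gave 350.3 and 336.8 in vehicle, 189.9 and 113 at 0.5 µM, and 114.5 and 83.7 at 10 µM, called at both concentrations (-1.23 and -1.81). The call in PC3 at 0.5 µM was lost without its replicate 2 (-0.86) and with the mean of the 14 probe sets (-0.66), and both PC3 calls were lost with the line fitted alone. The call between concentrations in NCI-H660 was lost without any 1 of its 4 treated arrays (-1.15 to -0.92) and after quantile normalization (-0.97), median centring (-0.92) or with the line fitted alone. Of the 40 pairs of gene and line, 2 were called between the concentrations, this one and FAS on the arrays labelled LNCaP, beside 0.98% over all genes. The difference for CFLAR on the arrays labelled LNCaP, -0.94, was called without replicate 2 at 10 µM (-1.10), and that for FAS in PC3, -0.66, without replicate 2 at 10 µM (-1.05).

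The result for CFLAR under the VCaP label depended on the probe set. The probe set that stands for the gene gave 116.8 and 112.7 at 10 µM, against 122.2 and 143.3 in vehicle, a log2 change of -0.21 close to the floor. The brightest probe set, of a class whose suffix marks probes that may also bind other transcripts, gave 1368.2 and 1551.5 in vehicle, 798.1 and 783.6 at 0.5 µM, and 492.9 and 443.8 at 10 µM (-1.64 ± 0.13, 3.12-fold). The next brightest, of the same class, gave 930.8 and 862.4 in vehicle, 512.6 and 567.7 at 0.5 µM, and 341.2 and 392.5 at 10 µM (-1.29). These 2 of 10 detected probe sets were called lower there at 10 µM, while 9 of the 10 lay below vehicle on both arrays. In the other lines 9 of 11 (labelled LNCaP), 9 of 11 (PC3) and 10 of 11 (NCI-H660) were called lower. Pooled over the 4 lines, 6.38% of detected probe sets of any gene were called lower at 10 µM. By line, the share of detected genes called lower ran from 3.38% (PC3) to 11.2% (labelled LNCaP). The probe sets of 1 gene are not independent of each other, and no share of separate arrays over all probe sets was worked out. The probe set with the deepest fall gave 156.3 and 204 in NCI-H660 at 10 µM, against 987.8 and 1080.2 in vehicle, a fall of 5.74-fold (log2 change -2.53).

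**Figure D4:**
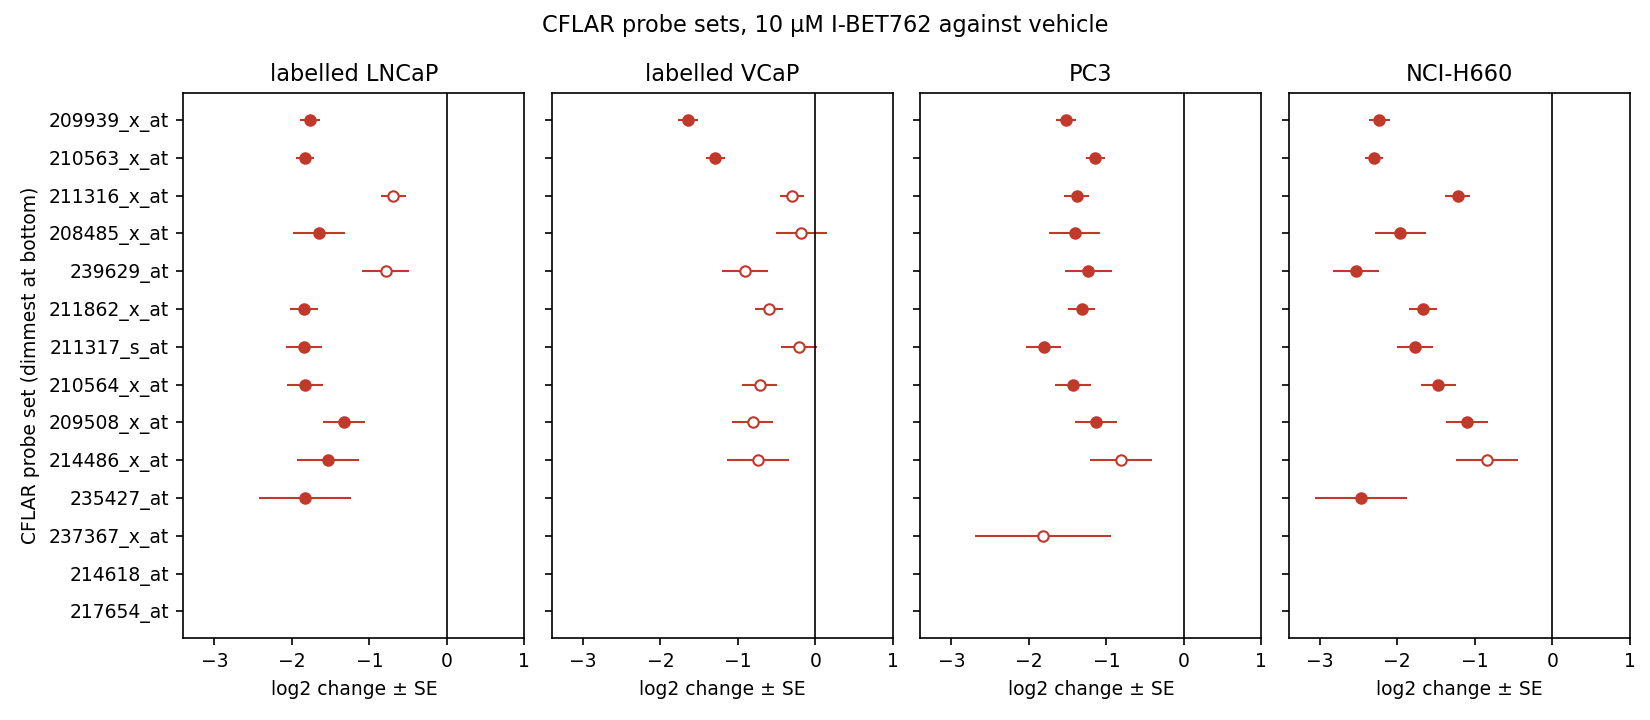
Log2 change at 10 µM against vehicle (points) with its standard error (bars) for each CFLAR probe set, brightest at the top, in each line. Filled points were called lower, and probe sets with both groups under the floor are left out. All points lie below 0, and on the arrays labelled VCaP only the 2 brightest are filled.

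FAIM, the inhibitor of FAS-driven death, on chromosome 3 (138608771 to 138633376), had both treated arrays below both vehicle arrays in all 4 lines at both concentrations, on its single probe set. It was called lower at 10 µM on the arrays labelled LNCaP, with 342 and 341.8, against 784 and 767.2 in vehicle (log2 change -1.18 ± 0.15, 2.27-fold). NCI-H660 gave 314.9 and 259.6 at 10 µM, against 696.2 and 775.9 in vehicle (-1.36, 2.56-fold). Both calls held under all 34 alternative settings and left-out arrays. PC3 gave 339.5 and 393.9, against 666.9 and 614 (-0.81), and the arrays labelled VCaP 917.9 and 895.8, against 1360.5 and 1354.1 (-0.58). At 0.5 µM the log2 changes lay between -0.78 and -0.43, none of them called.

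The vehicle levels of these genes in the 4 lines are given as a description, since the vehicle arrays are among those on which the genes were chosen. Of 60 pairs of gene and lines, 29 passed the same call rule, beside 24.8% over all genes and 38.6% of detected pairs of any gene, and 57 of the 60 were detected. FAS averaged 5516.3 ± 162.5 on the arrays labelled LNCaP (SD, n = 2), against 402.1 ± 40.4 on those labelled VCaP, a 13.7-fold difference. It was 10.2-fold above PC3 and 17.7-fold above NCI-H660, and the other 3 lines were within 1.75-fold of each other and not called, although the mean of the probe sets called PC3 above NCI-H660 (log2 difference 1.01). At 10 µM the arrays labelled LNCaP averaged 626.6, still over the vehicle means of the other 3 lines.

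TNFRSF10B had its highest vehicle mean under the VCaP label, and so did TNFRSF10A on the probe set that stands for it. The other 2 probe sets of TNFRSF10A averaged 609.6 and 579.9 under the VCaP label, against 723.2 and 718.7 in PC3, and the difference between these lines was not called (log2 difference 0.60). TNFRSF10A averaged 296 ± 3.98 on the arrays labelled LNCaP, against 887.6 ± 121.1 on those labelled VCaP (3-fold lower), and the arrays labelled VCaP lay 4.39-fold above NCI-H660. TNFRSF10B averaged 836 ± 96 on the arrays labelled LNCaP, against 4657.2 ± 229.9 on those labelled VCaP, 5.57-fold lower. The arrays labelled VCaP lay 11.6-fold above NCI-H660, and PC3, at 2446.1 ± 387.6, 6.09-fold above NCI-H660. The 1.9-fold difference between the arrays labelled VCaP and PC3 was not called, and was called without replicate 1 of PC3 (log2 difference 1.10). The 2.08-fold difference between the arrays labelled LNCaP and NCI-H660 was called, and lost without replicate 1 of NCI-H660 (log2 difference 0.82), without replicate 2 of the arrays labelled LNCaP (0.96) and with the mean of the probe sets (0.18). TNFRSF10D on the arrays labelled VCaP was at least 19.8-fold above PC3 and NCI-H660. The arrays labelled LNCaP were at least 19.8-fold below those labelled VCaP, a call lost without replicate 2 of the arrays labelled LNCaP.

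TNFSF10 had its highest mean on the same arrays as FAS, though not called against NCI-H660 (log2 difference 0.47). It averaged 380.6 ± 52.6 on the arrays labelled LNCaP, against 122.2 ± 5.03 on those labelled VCaP, 3.12-fold higher, and was at least 3.81-fold above PC3. PC3 was at least 2.73-fold below NCI-H660. The difference between the arrays labelled VCaP and NCI-H660 (log2 difference -1.16) was lost without any 1 of their 4 vehicle arrays (-1.23 to -1.09) and after quantile normalization (-0.76) or median centring (-0.77).

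Among the adaptors and inhibitors, FADD was highest in PC3 and lowest in NCI-H660. PC3 averaged 3344.1 ± 140.3, against 810.6 ± 29.8 in NCI-H660, 4.13-fold higher. TRADD averaged 1052.2 ± 19.5 on the arrays labelled VCaP, against 278.2 ± 71.6 in NCI-H660, 3.78-fold higher, and PC3 lay 3.08-fold above NCI-H660. The arrays labelled LNCaP were below those labelled VCaP in TRADD by a log2 difference of -1.34 (-0.48 with the mean of the probe sets), and below PC3 by -1.03, a call lost without replicate 2 of PC3 (-0.89) and after quantile normalization (-0.93), median centring (-0.85) or the mean of the probe sets (-0.27). The other detected TRADD probe set averaged 233.8 under the LNCaP label, against 645.8 under the VCaP label and 525.6 in PC3. Its remaining probe set, also in the mean, lay under the floor. CFLAR on the arrays labelled VCaP was 4.38-fold below NCI-H660 on the probe set that stands for it, which averaged 132.8 there, close to the floor. Its differences from the arrays labelled LNCaP and from PC3, 3.57-fold and 2.59-fold, were lost with the mean of the probe sets (log2 differences 0.63 for the arrays labelled LNCaP minus those labelled VCaP, and -0.28 for those labelled VCaP minus PC3). The brightest CFLAR probe set, which may also bind other transcripts, lay closer between lines. It averaged 1459.9 under the VCaP label, against 2717.7 in NCI-H660, 1582.3 under the LNCaP label and 1713.2 in PC3. FAIM was 2.12-fold higher on the arrays labelled VCaP than in PC3. CASP8 was the 1 gene with no call between lines, its means lying between 478 in NCI-H660 and 806.6 in PC3.

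**Figure D5:**
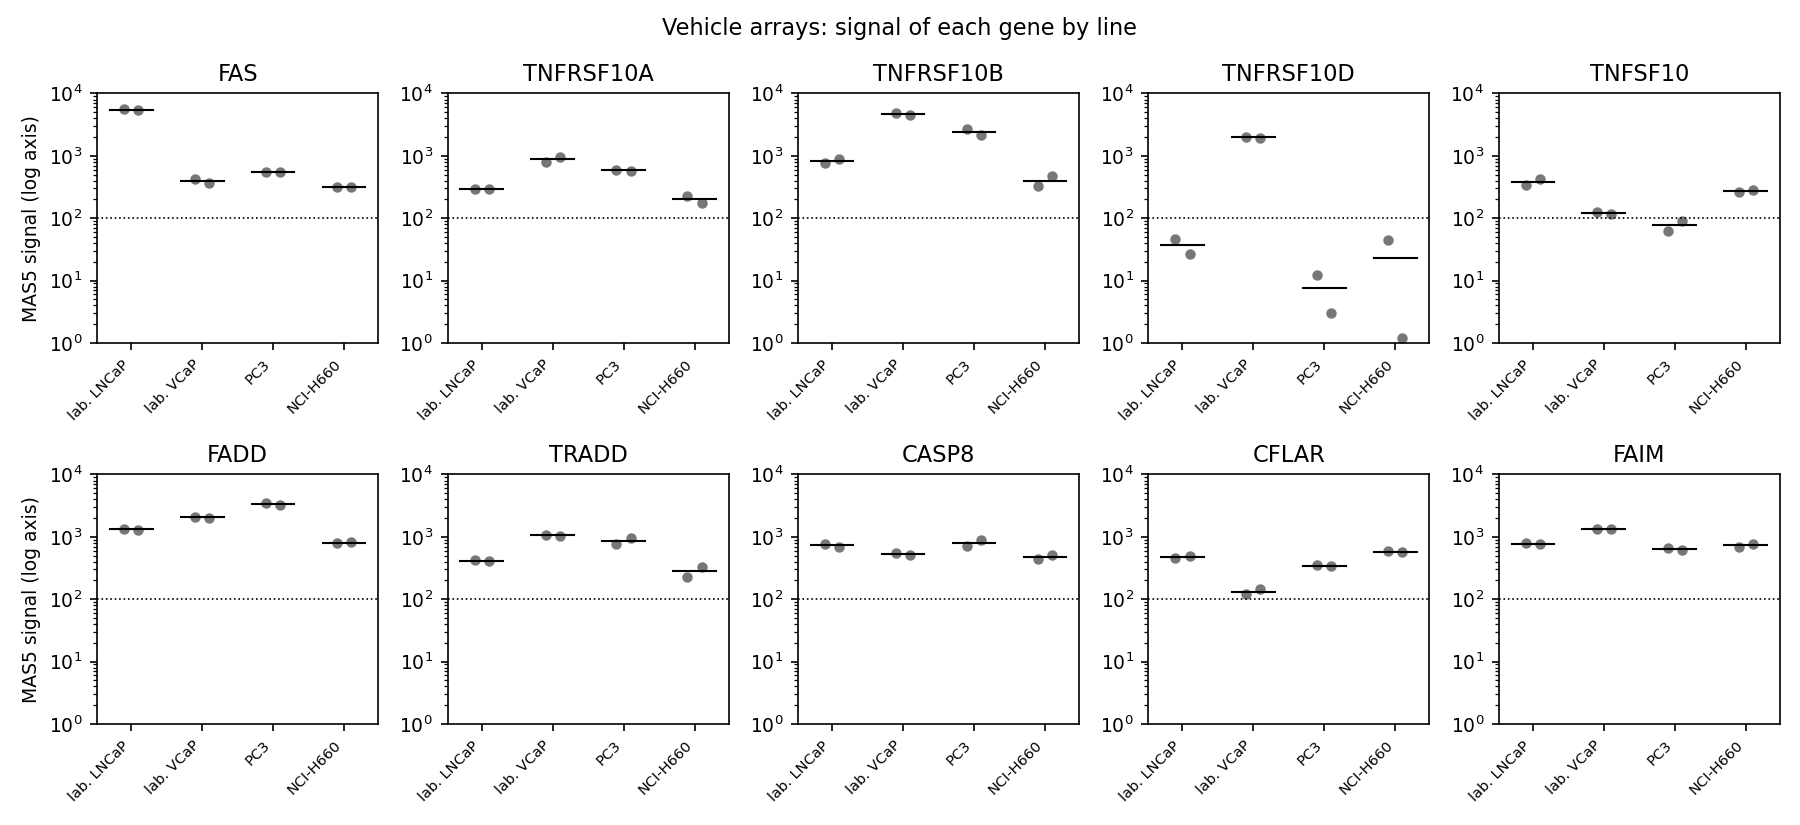
MAS5 signal (log axis) of each of the 10 genes on the 2 vehicle arrays of each line. Points are arrays, short bars are means of 2 and dotted lines are the floor of 100, and levels are to be compared between lines within a panel, since different probe sets are not on 1 scale. FAS stands out on the arrays labelled LNCaP and TNFRSF10D on those labelled VCaP, while CASP8 is nearly level.

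The rest of the pathway was read from 48 further ligands, receptors, adaptors, inhibitors and effectors, 41 of which had a probe set with 1 symbol. This list and the p53 list below were drawn up with earlier results of these data known. Their counts and p-values are therefore descriptions. At 10 µM, 9 of their 164 pairs of gene and line were called higher and 14 lower, 14%, beside 7.74% over all genes. Detected pairs numbered 119, of which 11.8% were called lower, beside 7.21% of detected pairs of any gene. At 0.5 µM, 3 were higher and 8 lower, 6.71%, beside 2.61% over all genes. Detected pairs then numbered 120, with 6.67% called lower, beside 2.66%. Of detected pairs of any gene, 12.8% were called in either direction at 10 µM and 4.33% at 0.5 µM. The ligand TNFSF15 fell in PC3 and under both the LNCaP and the VCaP label. Its means were 105.5 at 10 µM, against 422.1 in vehicle, under the LNCaP label (4-fold, adjusted p = 4.77e-06), 114, against 397.3, on those labelled VCaP (3.48-fold, adjusted p = 2.08e-05), and 200.2, against 401.7, in PC3 (2.01-fold, adjusted p = 0.0041). The PC3 call was lost without replicate 1 of vehicle (log2 change -0.96) or of 10 µM (-0.87), and that on the arrays labelled VCaP at 0.5 µM without replicate 1 at 0.5 µM (-0.81, against -1.09).

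Among receptors, TNFRSF21 (DR6) rose in NCI-H660 at 10 µM to 1445.3, against 384.2 in vehicle (3.76-fold, adjusted p = 1.03e-06). It was also called higher at 10 µM on the arrays labelled VCaP (log2 change 1.25), a call lost with the mean of its probe sets (0.93). TNFRSF11B, the soluble decoy osteoprotegerin, fell in PC3 to 55.7 at 10 µM, against 574.8 in vehicle (at least 5.75-fold, adjusted p = 0.00967), and its call at 0.5 µM (adjusted p = 0.0861) was lost without any 1 of 18 arrays (adjusted p up to 0.256) with the replicate number as a block (0.114), with median centring (0.105) and with the line fitted alone (0.257). TNFRSF25 (DR3), called higher on the arrays labelled VCaP at 0.5 µM (at least 1.33-fold, adjusted p = 0.0619), was lost without any 1 of those 4 arrays (0.158 to 0.229) and with the block (0.122). DEDD, a death effector domain protein, fell in NCI-H660 at 10 µM to 383, against 1115.9 in vehicle (2.91-fold, adjusted p = 2.09e-06).

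BID, which caspase-8 cleaves, fell at 10 µM to 138.1, against 480.3 in vehicle, on the arrays labelled LNCaP (3.48-fold, adjusted p = 3.69e-06). It fell to 430.3, against 1097.4, on those labelled VCaP (2.55-fold, adjusted p = 8.54e-05) and to 274.7, against 628.8, in NCI-H660 (2.29-fold, adjusted p = 0.000406). APAF1, the scaffold of the apoptosome, rose on the arrays labelled LNCaP to 252.6 at 10 µM, against 80.3 in vehicle (at least 2.53-fold, adjusted p = 4.06e-05). TNFAIP3 (A20), a brake on TNF receptor signalling, fell in PC3 to 548.8 at 10 µM, against 2391.7 in vehicle (4.36-fold, adjusted p = 9.97e-05). BIRC5 (survivin) fell on the arrays labelled VCaP to 2467.9 at 0.5 µM, against 5899.2 in vehicle (2.39-fold, adjusted p = 4.39e-06). The executioner caspase CASP6 rose on the arrays labelled LNCaP to 486.2 at 0.5 µM, against 220.9 in vehicle (2.2-fold, adjusted p = 0.000453), a call lost without replicate 1 of vehicle (log2 change 0.87). DFFB, the caspase-activated nuclease, fell on the arrays labelled VCaP to 110.9 at 10 µM, against 459.1 (4.14-fold, adjusted p = 4.56e-05). It was also called lower under the LNCaP label at 0.5 µM (log2 change -1.2) and 10 µM (-1.02). Both of those calls were lost with the line fitted alone, and that at 10 µM also without replicate 2 of vehicle (-0.93) or of 10 µM (-0.58).

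FAS, TNFRSF10A and TNFRSF10B are also known targets of p53, so 17 other p53 targets of a list of 20 were read beside them. At 10 µM, 8 of their 68 pairs of gene and line were called higher and 5 lower, 19.1%, beside the 7.74% over all genes. Of the 68 pairs 63 were detected, so 12.8%, the share called among detected pairs of any gene, is the closer background. SESN1, a stress-induced sestrin, rose on the arrays labelled LNCaP to 2697.4 at 10 µM, against 638.1 in vehicle (4.23-fold, adjusted p = 1.59e-07). SESN2, its relative, rose there to 543.4, against 125 (4.35-fold, adjusted p = 5.06e-06). AEN, a nuclease, went the other way and lay at 98.8, against 1466.7 (at least 14.7-fold lower, adjusted p = 3.15e-06). It was also called lower at 10 µM on the arrays labelled VCaP (log2 change -1.75) and in PC3 (-1.29). The PC3 call was lost with the line fitted alone, without either vehicle array or without replicate 1 at 10 µM. DDB2, a DNA damage sensor, fell on the arrays labelled VCaP to 496.2 at 10 µM, against 1531 in vehicle (3.09-fold, adjusted p = 0.00023). It was also called lower under the LNCaP label at 0.5 µM (log2 change -1.76) and at 10 µM (-1.24, and -0.95 without replicate 2 at 10 µM). TP53INP1 rose at 10 µM on the arrays labelled VCaP to 9514.4, against 4163 (2.29-fold, adjusted p = 9.06e-06, though 0.201 with the mean of its probe sets). It was also called higher in PC3 at 10 µM (log2 change 1.42), a call lost with the mean of its probe sets (1.1).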

How the data were processed

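RNA of 4 prostate cancer cell lines, with 2 independent biological replicates of each line and concentration, was measured on Affymetrix arrays. The authors deposited linear intensity values from the MAS5 algorithm, brought to a common target; each array's trimmed mean was checked and was 500. No probe-level files or detection calls were used here.

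After 62 control probe sets were left out, 1 limma model (version 3.58.1, R 4.3.3) of the 12 groups was fitted to the log2 signals of 54613 probe sets, with empirical Bayes moderation (12 residual and 1.29 prior degrees of freedom). The Benjamini-Hochberg adjustment took in every probe set of a contrast. The platform annotation gave 1 symbol to 41091 probe sets, several to 1801 and none to 11721; 19775 genes were named, each read from its brightest probe set on the log2 scale, other than an _x_at set if the gene had any alternative. A call needed an adjusted p under 0.1, a fold over 2 and a mean of at least 100 in either group, and a fold against a group under 100 is a lower bound. P-values are given only for genes outside the 10, since the 10 were chosen on these arrays, vehicle included. The pathway and p53 lists were also drawn up with earlier results known, so their p-values and counts are descriptive too. The script was tested on simulated data with known changes.

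The members and gene lists were chosen with earlier results of these data known. All 10 members are named; of the pathway and p53 lists, up to 3 genes per contrast with the largest change among called genes with separate arrays, and the 5 genes nearest to FAS. CFLAR probe sets beside the chosen one were singled out after their values were seen. Sequences come from RefSeq (GRCh38.p14). Alternatives were other floors, quantile normalization, median centring, an intensity trend, a stricter p of 0.05, adjustment over detected probe sets, the replicate number as a block, each line fitted alone, the mean of all of a gene's probe sets (also those under the floor), and 24 fits without 1 array, in which a group's single array takes its spread from the rest. The number of arrays limits the precision.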

Additional observations from a re-analysis of the deposited data

Results flagged for a closer look

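TNFRSF10B had opposite directions in different lines at 10 µM, which is why it is listed here. Its log2 change on the arrays labelled LNCaP minus that on the arrays labelled VCaP was -0.98 (-0.65 and 0.33), and its change on the arrays labelled VCaP minus that in PC3 was 1.02 (0.33 and -0.69), with both treated arrays beyond both vehicle arrays in each. This holds on the probe set that stands for the gene: the other 2 detected probe sets had changes of -0.05 and 0.08 under the VCaP label, and overlapped vehicle under the LNCaP label (-0.27 and -0.91). The difference was not tested, because the gene was listed with these contrasts in view.

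The other results are genes outside the 10 whose change differed between lines by limma's test of the difference itself. For each gene a single line pair and concentration is given. It is the one with the largest difference among those with an adjusted p under 0.1, so the p-values are picked ones. At 10 µM, the change on the arrays labelled LNCaP minus that in NCI-H660 was -2.41 for TNFSF15 (adjusted p = 7.48e-05), 2.43 for TNFRSF25 (0.0603), 1.94 for APAF1 (0.000555), 1.91 for SESN1 (3.24e-05) and -2.78 for AEN (0.00251). TNFRSF25 on the arrays labelled LNCaP and AEN in NCI-H660 lay under the floor in vehicle and at 10 µM. Their differences therefore rest in part on signals not counted as detected. The change on the arrays labelled LNCaP minus that in PC3 was 3.69 for TNFRSF11B (adjusted p = 0.048), 2.6 for TNFAIP3 (0.000338), 1.33 for CASP6 (0.00292), -0.93 for BID (0.0258) and -1.02 for TP53INP1 (0.00137) at 10 µM, and -2.07 for DDB2 (0.00548) at 0.5 µM. SESN2 differed between the arrays labelled LNCaP and those labelled VCaP by 2.12 (adjusted p = 0.000648). The change on the arrays labelled VCaP minus that in PC3 was -1.42 for DFFB (adjusted p = 0.0249) at 10 µM and -1.21 for BIRC5 (0.000385) at 0.5 µM, and minus that in NCI-H660 it was 1.02 for DEDD (0.00127) at 10 µM. For TNFRSF21 the change in PC3 minus that in NCI-H660 was -1.98 (adjusted p = 0.000176).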

How the results depend on the processing

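The count of member calls at 0.5 µM, 7, was 4 with each line fitted alone and 4 with the mean over all probe sets of a gene. The count of members called between the concentrations, 2, was 1 after quantile normalization, 1 after median centring and 1 with each line fitted alone. The count for the other pathway genes at 0.5 µM, 11, was 5 with each line fitted alone. Fitting a line alone leaves 3 residual degrees of freedom. The mean over all probe sets takes in those under the floor. An example is a CASP8 probe set with 10.9 at 10 µM, against 10.5 in vehicle, on the arrays labelled LNCaP. The cause of the shifts was not tested. Leaving out each array in turn gave 6 to 8 member calls at 0.5 µM, 15 to 17 at 10 µM, 1 to 3 between the concentrations and 27 to 30 between lines in vehicle. It gave 8 to 12 calls of other pathway genes at 0.5 µM and 21 to 26 at 10 µM, and 12 to 14 of p53 targets at 10 µM. No reported direction was reversed. The replicate number as a block gave 7 member calls at 0.5 µM, 16 at 10 µM, 2 between the concentrations and 29 between lines, and 9 calls of other pathway genes at 0.5 µM. Deviations of same-numbered arrays correlated between -0.04 and 0.06 over detected probe sets, so no array-wide deviation shared by number was seen. Whether same-numbered samples were handled together cannot be told from this. Median centring shifted all genes by -0.18 to 0.18. With signals near the floor, as for TNFSF10 and TNFRSF10D, changes are bounded or not measurable.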
